A study of Rattus norvegicus with 63 samples.

Results

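The cytosolic ribosomal proteins are the structural proteins of the ribosome that translates nuclear mRNAs. They were taken here as the genes whose single array symbol starts with Rpl or Rps and a digit, or reads Rplp0, Rplp1, Rplp2 or Rpsa, with the S6 kinases left out. The rule found 44 of the 10411 genes on the array, 28 of the large subunit (Rpl), 12 of the small subunit (Rps) and 4 paralogs or variant genes (Rps27l, Rpl7l1, Rpl3l and Rps4y2). The 40 genes that are no paralog are called core members. The rule reads symbols only, and a gene with several probe sets was represented by the one with the highest mean.

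A ribosome needs nearly all of these proteins in equal number, and in most tissues their mRNAs are among the most abundant of the cell. Their translation is switched together by the kinase mTORC1 through a pyrimidine tract at the very start of the mRNA (the 5′ terminal oligopyrimidine tract, TOP), and Rps6 is the classical substrate of the S6 kinases downstream of mTORC1. Some members act outside the ribosome: free Rpl5 and Rpl11 bind the p53 inhibitor Mdm2, and Rps27l is a transcriptional target of p53.

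Liver RNA of male Wistar Hanover rats, 8 to 10 weeks old when assigned to dose groups, was hybridised to 63 RAE230A arrays, 1 array per animal and 3 animals per group. The animals received 1 of 15 compounds or a vehicle by gastric gavage, and the study asked which responses tell 3 classes apart: non-carcinogens (NC), carcinogens that damage DNA (GC, genotoxic) and carcinogens that do not (NGC, non-genotoxic). The arrayed animals were picked after histopathology from larger dose groups, so they are separate animals but no random draw. The 6 vehicle groups are called control sets 1 to 6, after the control group number in the labels.

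Control set 1 (methylcellulose, 14 days) served acetamide (AA, NGC, 3000 mg/kg per day for 14 days), dehydroepiandrosterone (DHEA, NGC, 600 mg/kg, 14 days), methylcarbamate (Mcarb, NGC, 400 mg/kg, 14 days), methapyrilene HCl (MPy, NGC, 60 mg/kg, 7 days), thioacetamide (TAA, 19.2 mg/kg, 7 days) and Wy-14643 (Wy, 60 mg/kg, 3 days). Control set 2 (methylcellulose, 14 days) served cefuroxime (CFX, NC, 250 mg/kg, 14 days) and nifedipine (Nif, NC, 3 mg/kg, 14 days). Control set 3 (corn oil, 7 days) served C.I. Direct Black (CIDB, GC, 146 mg/kg, 7 days) and dimethylnitrosamine (DMN, GC, 4 mg/kg, 7 days). Control set 4 (corn oil, 14 days) served cyproterone acetate (CPA, 100 mg/kg, 14 days). Control set 5 (methylcellulose, 14 days) served diethylstilbestrol (DES, NGC, 10 mg/kg, 3 days), ethionine (ETH, NGC, 200 mg/kg, 14 days) and piperonylbutoxide (PBO, NGC, 1200 mg/kg, 3 days). Control set 6 (methylcellulose, 14 days) served phenobarbital sodium (PB, NGC, 14 days, with no dose in the labels). CPA, TAA and Wy had no assigned class. By these labels DES, PBO, Wy, MPy and TAA were compared with vehicle animals of a later day, while the study's methods describe the control groups as matched in time. If the labels hold, the compound and the day of dosing cannot be told apart in these 5 comparisons.

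Levels are RMA values on the log2 scale and, since RMA equalises the arrays, they are relative to the other transcripts of the same array. Of the 40 core members, 36 had a mean above 11 over the 63 arrays and 38 lay above the 90th percentile of all 15866 probe sets. The probe sets of Rpl39 (7.77) and Rpl30 (5.84) lay lower. Those of the paralogs had means of 9.49 for Rpl7l1, 8.00 for Rps27l, 7.21 for Rps4y2 and 5.31 for Rpl3l, the paralog of Rpl3 that is known from skeletal and cardiac muscle. Probe sets differ in brightness, so these values do not rank the transcripts.

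The mean over the 40 core members was above that of all 18 vehicle animals in every DES, MPy and DHEA animal. In the 3 DES animals it was 12.29, 12.33 and 12.45, and in the 3 MPy animals 12.38, 12.39 and 12.42. The 18 vehicle animals lay between 11.55 and 12.13. DHEA (12.15, 12.19 and 12.22) and TAA (12.13, 12.17 and 12.17) came next, both above the animals of their control set 1 (11.88, 11.90 and 11.91). The vehicle groups differed in spread. Control set 5 held the lowest array of all 63 (11.55, replicate 8, against 11.75 and 11.91), and control set 6 held the highest vehicle array (12.13, replicate 1, against 11.76 and 11.84), while the 3 animals of control set 1 lay within 0.03.

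**Figure D1:**
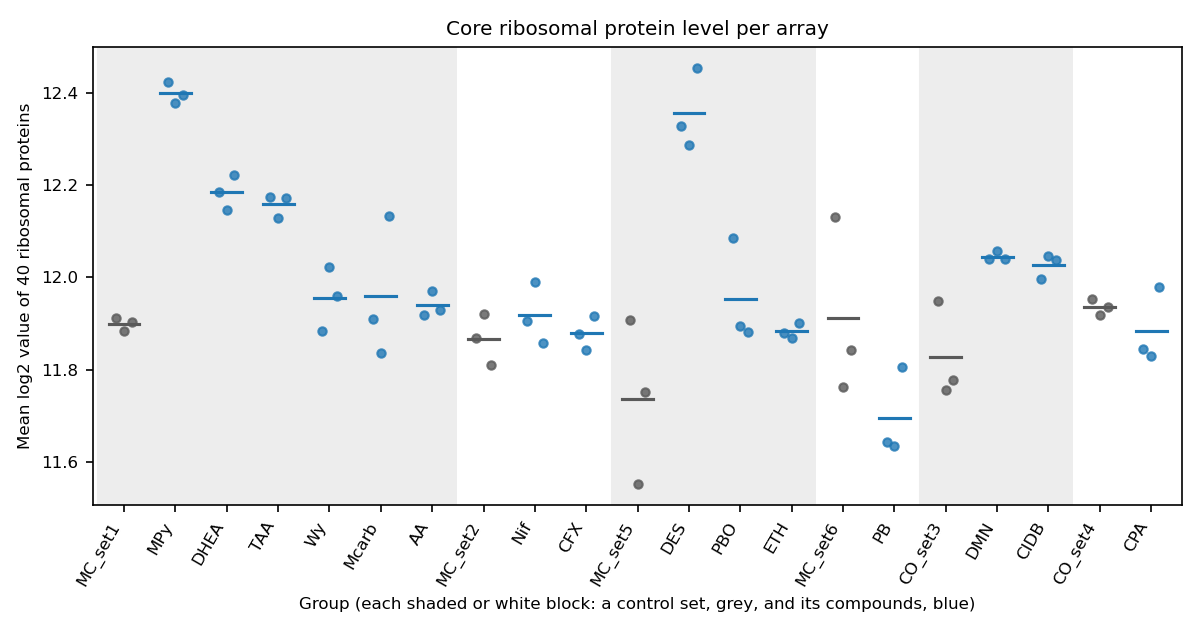
Mean log2 value of the 40 core ribosomal proteins (vertical axis) in each of the 63 arrays (points), with the mean of each group of 3 (line), arranged by control set (grey, MC for methylcellulose and CO for corn oil) and its compounds (blue). The DES and MPy arrays lie between 12.29 and 12.45 and the DHEA arrays between 12.15 and 12.22, above all vehicle arrays (11.55 to 12.13), and control sets 5 and 6 spread more than control set 1.

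The annotated transcription starts were searched for the tract through which these mRNAs are known to be regulated. RefSeq promoter entries (build GRCr8) were found for 37 of the 44 members, 33 of them core members. The tract was searched on the transcribed strand as a C followed by at least 4 pyrimidines (C or T). In the 30 bases around the start below, the 16th letter is the annotated first base of the transcript and capitals mark such runs that begin within 10 bases of it. The first 6 genes all carry a run, and they were among those that rose most with DES, MPy or CIDB or have a tract right at the start. They are no sample of the members that rose most. Rpsa with MPy and Rpl11 with CIDB were also among these, have no run within 10 bases of the start and are not shown. The last ones, Rpl3 and Rps27l, are shown because they behaved apart from the rest with CIDB.
Rpl19 (chr10:83519049-83519078, plus strand): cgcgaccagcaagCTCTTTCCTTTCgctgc
Rplp0 (chr12:46718376-46718405, minus strand): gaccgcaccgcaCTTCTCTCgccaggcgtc
Rps15 (chr7:10068101-10068130, minus strand): cgctgacaccgCTTCCTTTTCCCagcagcc
Rpl35 (chr3:43165907-43165936, minus strand): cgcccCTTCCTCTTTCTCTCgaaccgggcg
Rpl12 (chr3:36661925-36661954, plus strand): ggagcaacatccgtCTTTTCggCTTTCggt
Rps24 (chr16:96502-96531, plus strand): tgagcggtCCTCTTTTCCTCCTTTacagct
Rpl3 (chr7:113507976-113508005, minus strand): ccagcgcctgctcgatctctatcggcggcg
Rps27l (chr8:76443643-76443672, plus strand): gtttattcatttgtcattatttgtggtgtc

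The annotated first base was itself a C followed by at least 4 pyrimidines in 10 of the 33 core members (30.3%), against 2.63% of all 33469 promoters in the table. This count includes starts that lie inside a run beginning earlier. Within 10 bases of the start a run was found in 22 of 33 (66.7%), against 28.9% of all promoters. In Rpl19, Rplp0, Rps15 and Rpl35 the annotated first base is a C inside a run that begins before it. In Rpl12 and Rps24 it is a T inside such a run. The starts were not measured here, so a missing run says only that these letters are not in this window. With DES the 22 core members with a run had a median log2 change of 0.62 and the 11 without one a median of 0.60, and with MPy the medians were 0.50 and 0.54. The letters AAGATGG, searched on both strands over the 300 bases of a promoter entry after the sequences had been read, were found in 8 of 33 core members (24.2%) and in 7.01% of all promoters. They contain the letters of a start codon and may overlap it, and read from the opposite strand they may overlap a run.

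Across the 15 comparisons, 160 changes of members passed the test upward and 6 downward. A change was called at a Benjamini-Hochberg adjusted p under 0.05 over all 15866 probe sets. At least 1 member rose with 10 compounds, and 42 of the 44 members were called with 1 compound or more. The matching pooled counts over all probe sets were not made, so these totals have no background beside them. Per compound, between 0.00630% (CFX) and 23.5% (ETH) of all probe sets were called. Rpl19, a large subunit protein that forms a bridge between the subunits, was called most often (8 compounds, upward in each), followed by Rpl4, Rpl5, Rps6, Rpl3 and Rpl14 (6 compounds each). Rps4y2 and Rpl3l were called with none. A further 34 ribosomal protein probe sets carry several symbols and can name no gene. Of these, 32 rose with DES, 32 with MPy, 20 with DHEA and 16 with TAA, beside 6.77%, 3.28%, 9.30% and 3.15% of all probe sets.

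**Figure D2:**
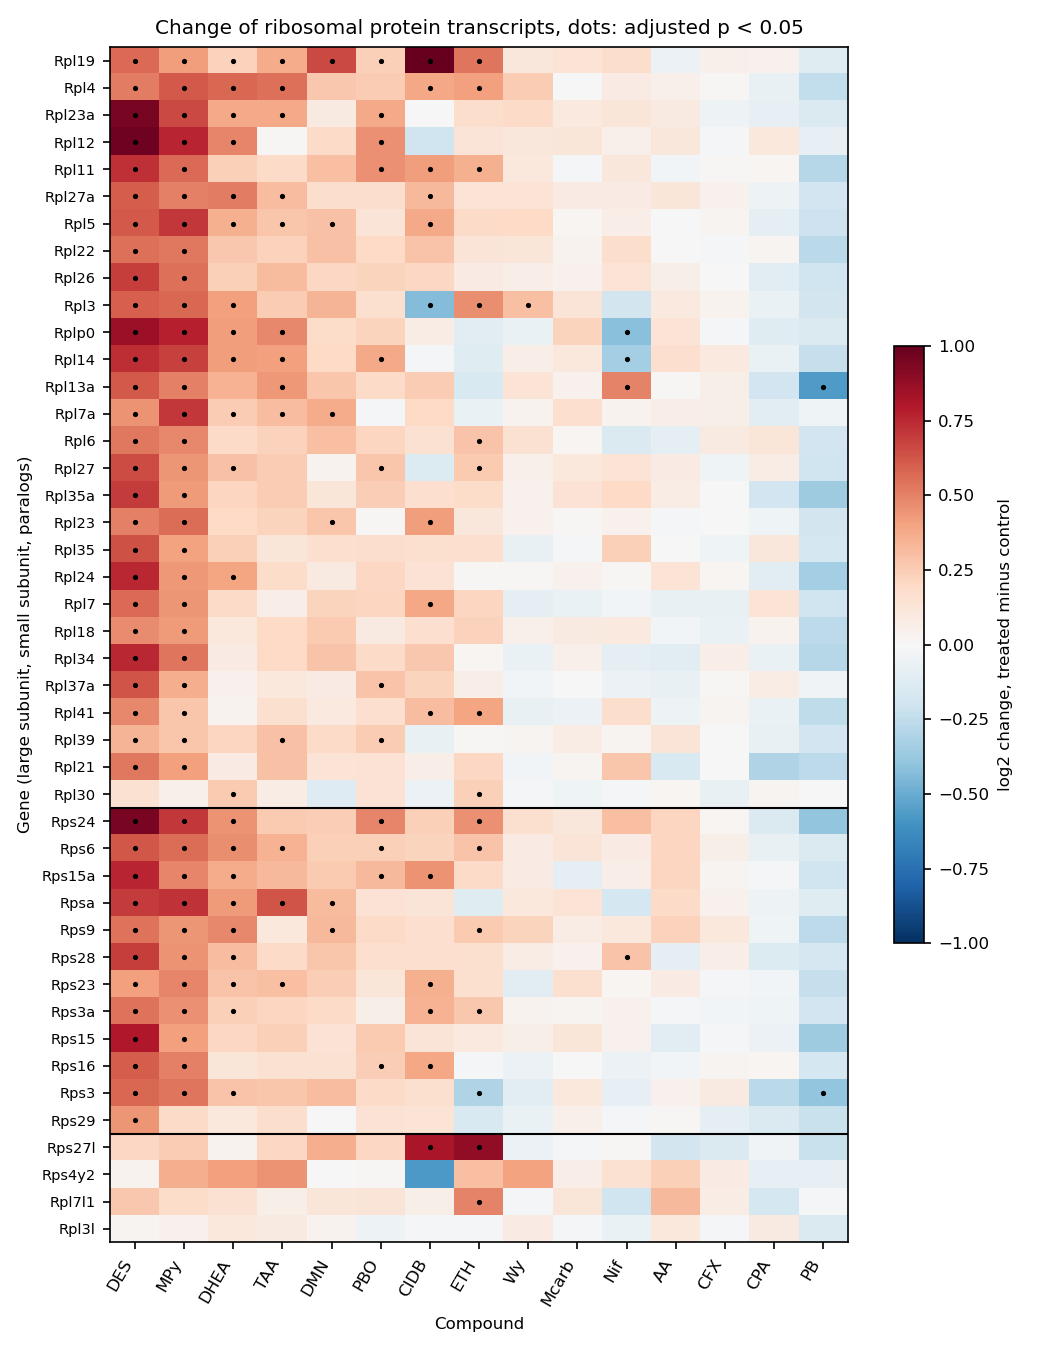
Log2 change of the 44 ribosomal protein genes (rows, in blocks of large subunit, small subunit and paralogs) with each of the 15 compounds (columns, ordered by the median of the members), treated minus control. Red is higher and blue lower in treated animals, and a dot marks an adjusted p under 0.05. Colours are capped at 1 on either side. Apart from Rpl30 and, with MPy, Rps29, every core member has a dot with DES and MPy, while Rps27l carries dots with CIDB and ETH only.

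DES, a synthetic oestrogen, gave the widest rise. All 44 members had a change above 0, and 39 rose (88.6%), 27 of the large and 12 of the small subunit, while 6.77% of all probe sets rose and 8.72% fell. The median change was 0.60 (−0.01 over all probe sets), and the 3 animals taken singly had medians of 0.51, 0.59 and 0.70. The 5 members that did not pass were Rpl30 and the 4 paralogs. Because RNA was taken from whole liver, more RNA per cell and more cells of a type cannot be told apart here or below.

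Rpl12, which together with the stalk protein Rplp0 builds the site where elongation factors bind, had values of 12.60, 12.61 and 12.87 with DES and 11.57, 11.70 and 11.89 in control set 5. It rose 1.96-fold (log2 change 0.97 ± 0.09 SE, adjusted p = 2.83e-11). Rplp0 itself lay at 12.82, 12.91 and 12.97 against 11.91, 12.02 and 12.20, a rise of 0.85 ± 0.09 (adjusted p = 2.27e-10). The groups of both genes did not overlap, which was a condition for naming them. Rpl23a, at the exit of the peptide tunnel where the signal recognition particle docks, had values of 11.81, 11.84 and 12.15 against 10.65, 11.13 and 11.17, a rise of 0.95 ± 0.10 (adjusted p = 6.18e-10). Rps24, one of the genes mutated in Diamond-Blackfan anaemia, lay at 12.48, 12.56 and 12.73 against 11.21, 11.83 and 11.90, a rise of 0.95 ± 0.13 (adjusted p = 3.22e-07). The lowest control value of Rps24, 11.21, came from control set 5, whose core mean was spread (above). A second, dim probe set of Rps24 (mean 4.81) did not follow: its change was 0.11 with DES and −0.04 with MPy, and neither passed.

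The DES count was nearly as large without the low vehicle array, control set 5 replicate 8 (38, with a median of 0.52), and against all methylcellulose animals together (39). Against PBO, which was dosed for the same 3 days and shares control set 5, 36 members were higher with DES and 0 lower (5.29% and 6.91% of all probe sets), with a median difference of 0.38. Against Wy, also dosed for 3 days, 33 were higher and 0 lower (10.7% and 10.2% of all), with a median of 0.37. The largest difference from PBO was that of Rplp0 (0.63 ± 0.09, adjusted p = 3.91e-07). These comparisons of treated groups were added after the values had been seen.

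MPy, an antihistamine withdrawn as a rat liver carcinogen, gave a rise of similar breadth. A total of 38 members rose (86.4%) and 0 fell, 27 of the large and 11 of the small subunit, while 3.28% of all probe sets rose and 3.04% fell (6.32% called). The median change was 0.48 (0.01 over all probe sets), and the single animals had medians of 0.42, 0.48 and 0.53. All 38 were also among the 39 called with DES (97.4% of these). The one core member called with DES and not with MPy besides Rpl30, which passed with neither, was Rps29 (0.19, adjusted p = 0.102).

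Rplp0 had values of 12.77, 12.79 and 12.93 with MPy and 12.03, 12.03 and 12.10 in control set 1, a rise of 0.78 ± 0.09 (1.71-fold, adjusted p = 1.18e-08). Rpl12 lay at 12.65, 12.66 and 12.69 against 11.87, 11.90 and 11.95 (0.76 ± 0.09, adjusted p = 8.32e-08). Rpsa, the small subunit protein also known as the laminin receptor precursor, lay at 12.96, 13.03 and 13.12 against 12.28, 12.32 and 12.34 (0.72 ± 0.09, adjusted p = 3.94e-08). In each of these genes all treated animals lay above the highest animal of control set 1, again a condition for naming them. Rps24 lay at 12.62, 12.69 and 12.75 against 11.92, 12.00 and 12.01 (0.71 ± 0.13, adjusted p = 0.000201). Rpl5, which carries 5S rRNA into the ribosome, rose by 0.71 ± 0.08 (13.06, 13.08 and 13.16 against 12.36, 12.40 and 12.41, adjusted p = 3.69e-08).

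TAA was dosed for 7 days like MPy and shares its control set. With TAA 13 members rose (29.5%) and 0 fell, 10 of the large and 3 of the small subunit, beside 3.15% and 3.25% of all probe sets (6.40% called). All 44 changes were above 0, with a median of 0.25. Rpsa lay at 12.82, 12.97 and 13.04 (0.63 ± 0.09, adjusted p = 1.96e-06), and Rplp0 at 12.48, 12.51 and 12.59 (0.48 ± 0.09, adjusted p = 0.000272), both clear of the vehicle values given above. Rpl4, which lines the peptide exit tunnel, lay at 12.19, 12.48 and 12.53 against 11.69, 11.92 and 11.94 (0.55 ± 0.13, adjusted p = 0.00511), and Rpl13a at 11.80, 11.94 and 11.96 against 11.39, 11.50 and 11.50 (0.43 ± 0.14, adjusted p = 0.0414). Rpl12 did not follow: its TAA values of 11.89, 11.93 and 11.94 fell inside the vehicle range, with a change of 0.01 ± 0.09 (adjusted p = 0.972). Tested directly, MPy exceeded TAA in 7 members and was lower in 0 (1.34% and 0.769% of all probe sets), led by Rpl12 with a difference of 0.75 ± 0.09 (adjusted p = 3.02e-07), then Rpl5 (0.43 ± 0.08, adjusted p = 0.00133) and Rpl7a (0.40 ± 0.07, adjusted p = 0.00035). The TAA count was 7 or 8 without any 1 of the 3 control animals or without TAA replicate 1 or 3, and 34 against all methylcellulose animals, and the count against MPy was 4 without MPy replicate 1 or TAA replicate 1 or 2. Of the marker lists, 3 of 11 biliary and progenitor markers rose with TAA, and 2 of 17 stellate and matrix, 1 of 9 macrophage and 1 of 7 endothelial markers fell. Their part was not tested.

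DHEA, an androgen precursor that induces peroxisomes in rodent liver, raised many members: 22 of 44 rose (50%) and 0 fell, 13 of the large and 9 of the small subunit, beside 9.30% and 8.37% of all probe sets. All 44 changes were above 0, with a median of 0.26. Rpl4 lay at 12.22, 12.50 and 12.57 (0.58 ± 0.13, adjusted p = 0.000958) and Rpl12 at 12.30, 12.37 and 12.52 (0.49 ± 0.09, adjusted p = 9.91e-05), above the vehicle values given for control set 1. Rpl27a lay at 13.15, 13.37 and 13.46 against 12.76, 12.82 and 12.86 (0.51 ± 0.09, adjusted p = 5.85e-05). Rps9, a small subunit protein near the mRNA entry channel, lay at 12.48, 12.56 and 12.62 against 12.03, 12.07 and 12.11 (0.48 ± 0.10, adjusted p = 0.000272). None of the 4 genes overlapped between the groups, which was a condition for naming them. Markers of other cell types moved in the same animals: 7 of 9 macrophage markers fell (their mean was 8.85 to 9.21 against 9.66 to 9.85 in control set 1), as did 5 of 7 endothelial and 7 of 17 stellate and matrix markers. Of 13 hepatocyte markers 2 rose and 8 fell, and 1 of 11 biliary and progenitor markers rose. The part of these shifts in the rise was not tested. Against all methylcellulose animals the count was 36.

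Marker lists of other cell types were read in the DES and MPy animals too. With MPy 0 of 9 macrophage, 0 of 20 lymphocyte and 0 of 6 erythroid markers passed. Of the others 2 of 11 biliary and progenitor markers rose (Epcam by 1.14 and Krt18 by 0.51), while 1 of 17 stellate and matrix (Vim, −0.81), 1 of 7 endothelial (Tie1, −0.27) and 1 of 13 hepatocyte markers fell. With DES 0 of 9 macrophage and 0 of 6 erythroid markers passed, 1 of 20 lymphocyte markers rose, 1 hepatocyte marker rose and 2 fell, and 2 biliary and progenitor markers fell (Afp, −0.89, and Cldn7, −0.35). Also with DES, 5 of 17 stellate and matrix markers rose and 1 fell (mean 8.03 to 8.12 against 7.74 to 7.91), and 3 of 7 endothelial markers rose. The part of these shifts was not tested. Cell cycle genes rose with both (9 of 28 each). With Wy 21 of the 28 cell cycle genes rose, and Rpl3 was the one member called. The part of the cell cycle genes in the changes of the members was not tested.

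CIDB and DMN, the genotoxic compounds, share corn oil control set 3. With CIDB 13 members rose (29.5%) and 1 fell (2.27%), beside 8.14% and 5.75% of all probe sets, with a median of 0.17. With DMN 6 rose (13.6%) and 0 fell, beside 2.31% and 0.920% (3.23% called), with a median of 0.21.

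Rpl19 gave the largest change of any member with either compound. It lay at 13.46, 13.51 and 13.58 with CIDB, at 13.12, 13.17 and 13.20 with DMN and at 12.43, 12.44 and 12.64 in control set 3. It rose 2.02-fold with CIDB (1.01 ± 0.08, adjusted p = 1.17e-13) and 1.58-fold with DMN (0.66 ± 0.08, adjusted p = 1.91e-07). CIDB exceeded DMN by 0.36 ± 0.08 (adjusted p = 0.00176).

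Rpl3, which reaches towards the peptidyl transferase centre, moved apart from the set. Its CIDB values of 11.58, 11.61 and 11.66 lay below the vehicle values of 11.91, 12.04 and 12.18, and it fell by 0.43 on the log2 scale (SE 0.10, adjusted p = 0.00243). With DMN it lay at 12.36, 12.37 and 12.42, above the vehicle animals, with a change of 0.34 ± 0.10 that missed the threshold (adjusted p = 0.0585). The difference between CIDB and DMN was −0.77 ± 0.10 (adjusted p = 2.7e-07), and Rpl12 (−0.40 ± 0.09, adjusted p = 0.00198) and Rpl39 (−0.27 ± 0.09, adjusted p = 0.0317) were likewise lower with CIDB than with DMN. In all, 2 of the 44 members were higher and 3 lower with CIDB than with DMN. Of all probe sets 6.35% were higher and 6.51% lower (12.9% called), so the share of members was near the background. Rpl3 rose with DES, MPy, DHEA, ETH and Wy, so CIDB was the one compound with which it fell.

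Rps27l, the p53 target, was the other member higher with CIDB than with DMN (0.46 ± 0.13, adjusted p = 0.0142). It lay at 8.68, 8.73 and 8.75 with CIDB and at 7.85, 7.92 and 7.93 in control set 3, a rise of 1.77-fold (0.82 ± 0.13, adjusted p = 9.28e-06). With DMN it lay at 8.03, 8.34 and 8.42 (0.36 ± 0.13, adjusted p = 0.135). Of the 11 other genes measured from a list of p53 targets, 7 rose and 1 fell with CIDB, and 4 rose with DMN. With ETH, where Rps27l rose by 0.89, 3 of them rose and 2 fell. With DES 3 rose and 2 fell, and with TAA, MPy and Mcarb 2 rose each, while Rps27l was called with none of these compounds. Cdkn1a, the cell cycle inhibitor p21, rose by 3.96 ± 0.26 with CIDB and by 2.33 ± 0.26 with DMN (adjusted p = 1.14e-16 and 1.37e-08), and Mdm2 by 3.43 ± 0.17 and 1.57 ± 0.17 (adjusted p = 1.5e-21 and 4.74e-09). Of the Mdm2 binding ribosomal proteins, Rpl5 rose with both (0.38 ± 0.08 and 0.29 ± 0.08, adjusted p = 0.00102 and 0.0352) and Rpl11 with CIDB, where it lay at 12.36, 12.37 and 12.40 against 11.83, 11.91 and 12.13 (0.42 ± 0.10, adjusted p = 0.00281). Rps15a (0.45 ± 0.11, adjusted p = 0.00258) rose with CIDB as well. With DMN Rpl7a lay at 13.71, 13.72 and 13.76 against 13.25, 13.35 and 13.48 (0.37 ± 0.07, adjusted p = 0.000677). Rpsa (0.32 ± 0.09, adjusted p = 0.0239) and Rps9 (0.33 ± 0.10, adjusted p = 0.0498) rose with DMN too, the second just past the threshold, and their calls were lost under several alternatives.

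In the CIDB animals 5 of 6 erythroid markers fell (mean 7.68 to 7.82 against 9.40 to 9.78), 4 of 9 macrophage markers rose and 1 fell (9.60 to 9.76 against 9.05 to 9.55). Also with CIDB, 4 of 11 biliary and progenitor markers rose, 2 of 17 stellate and matrix markers rose and 1 fell, 2 of 13 hepatocyte markers rose and 2 fell, and 1 lymphocyte and 1 endothelial marker fell. In the DMN animals 3 macrophage markers rose and 1 fell (9.77 to 9.99), 3 stellate and matrix markers rose and 1 fell (Dcn rose by 1.38), 2 of 20 lymphocyte markers and 1 biliary marker rose, 1 hepatocyte marker rose and 1 fell, and 1 endothelial marker fell. The part of these shifts was not tested. Control set 3 replicate 4 had a core mean of 11.95 against 11.76 and 11.78 in the other vehicle animals. The CIDB count was 12 to 18 with 1 array left out and 30 with array weights, and the DMN count was 2 to 13 (13 without control set 3 replicate 4, and 2 without replicate 5 or 6 of that set or without DMN replicate 1 or 2), 31 with array weights and 2 when only the 6 arrays were fitted.

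**Figure D3:**
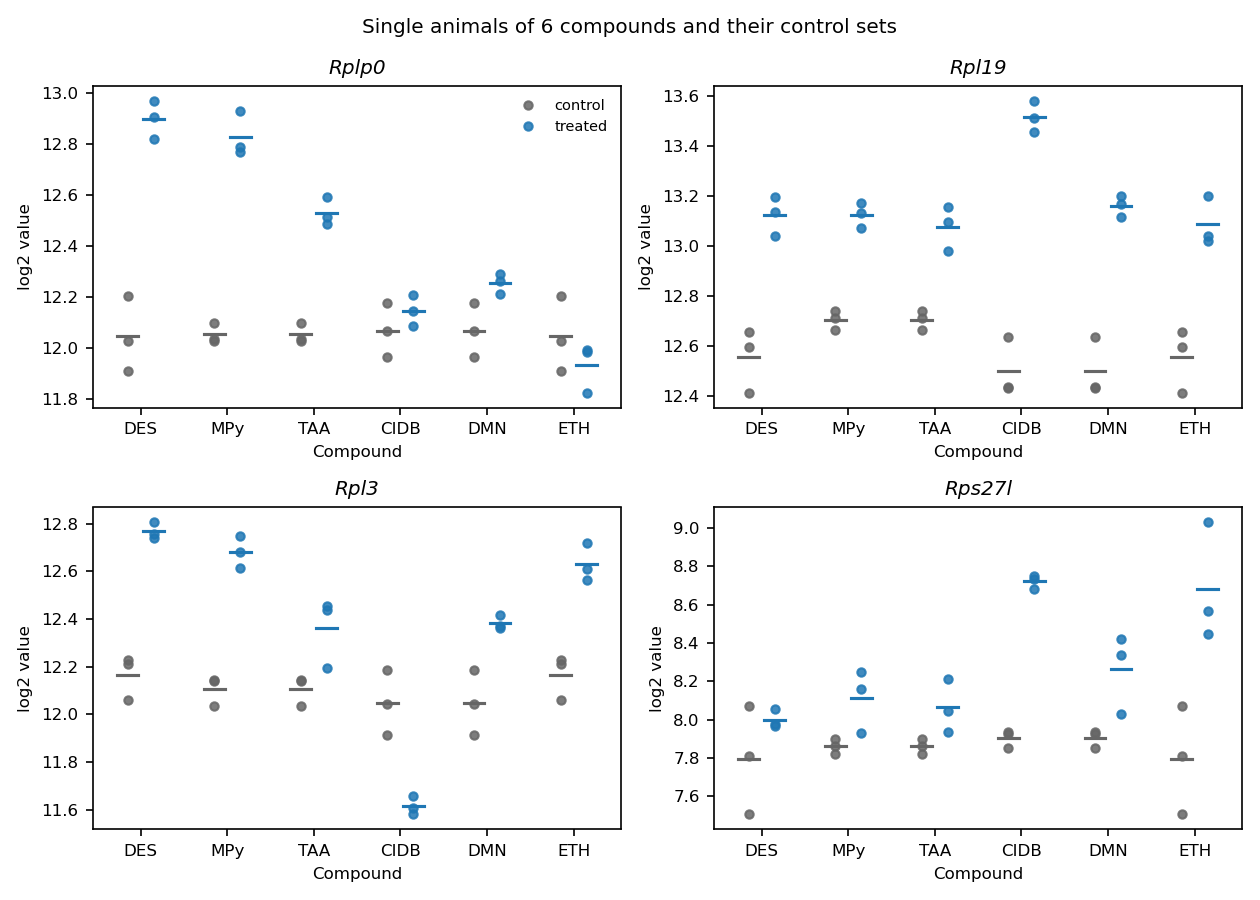
Log2 values of Rplp0, Rpl19, Rpl3 and Rps27l in single animals (points) and group means (lines) for 6 compounds (blue) and their control sets (grey). CIDB holds the highest Rpl19 values (13.46 to 13.58) and the lowest Rpl3 values (11.58 to 11.66), and Rplp0 is highest with DES and MPy.

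ETH, the ethyl analog of methionine, changed a larger share of the genome than any other compound here (11.7% of all probe sets up and 11.8% down) without the breadth of the DES and MPy changes among the members. Of the 44 members 14 rose (31.8%) and 1 fell (2.27%), with a median of 0.17, and 9 changes were below 0. The median was 0.049 without control set 5 replicate 8 and 0.051 against all methylcellulose animals. Rps27l lay at 8.45, 8.57 and 9.03 against 7.50, 7.81 and 8.07 in control set 5, a rise of 1.85-fold (0.89 ± 0.13, adjusted p = 7.82e-07). Rpl7l1, a paralog of Rpl7 that takes part in the assembly of the large subunit, was called with this compound alone: it lay at 9.52, 9.76 and 9.94 against 9.13, 9.24 and 9.35 (0.50 ± 0.11, adjusted p = 0.000268). A second Rpl7l1 probe set changed by 0.26 (adjusted p = 0.0518). Both paralogs were thus higher in all 3 ETH animals than in any animal of control set 5.

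Rpl19 (13.02, 13.04 and 13.20 against 12.41, 12.60 and 12.66) rose by 0.53 ± 0.08 (adjusted p = 1.57e-06), and Rpl3 (12.56, 12.61 and 12.72 against 12.06, 12.21 and 12.23) by 0.46 ± 0.10 (adjusted p = 0.000496). Rplp0 did not pass and lay at 11.82, 11.98 and 11.99 (−0.11 ± 0.09, adjusted p = 0.395), inside or below its vehicle range. Rps3, a small subunit protein at the mRNA entry channel, lay at 11.23, 11.27 and 11.29 against 11.39, 11.44 and 11.84 and fell by 0.30 (SE 0.10, adjusted p = 0.0203), a call that was lost without control set 5 replicate 7 (adjusted p = 0.274) or ETH replicate 1 (adjusted p = 0.0625). Macrophage markers rose in 8 of 9 and fell in 1 (mean 10.22 to 10.28 against 9.04 to 9.58), and 6 of 11 biliary and progenitor and 4 of 20 lymphocyte markers rose. Of the stellate and matrix markers 3 rose and 1 fell, of the hepatocyte markers 2 rose and 1 fell, of the endothelial markers 1 rose and 1 fell, and 2 of 6 erythroid markers fell. Their part in these changes was not tested. The ETH count was 10 to 20 with 1 array left out (10 without control set 5 replicate 9) and 6 when only the 6 arrays were fitted.

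PBO, an insecticide synergist, gave 12 rising members (27.3%) and 0 falling ones beside 7.03% and 7.46% of all probe sets, with a median of 0.20. Rps24 lay at 12.04, 12.05 and 12.32 (0.49 ± 0.13, adjusted p = 0.00681), Rpl12 at 12.06, 12.11 and 12.36 (0.46 ± 0.09, adjusted p = 0.000314), both above the control set 5 values given for DES. Rpl11 lay at 11.93, 11.97 and 12.19 against 11.45, 11.45 and 11.82 (0.46 ± 0.10, adjusted p = 0.00109). Rpl14 lay at 11.02, 11.18 and 11.35 against 10.47, 10.94 and 10.98 (0.38 ± 0.10, adjusted p = 0.00719). The second, dim probe set of Rpl14 (mean 6.53) changed by 0.02 with PBO, −0.06 with Nif, 0.10 with MPy and −0.0014 with DES, and none of these passed, whereas with DHEA it rose by 0.41 (adjusted p = 8.95e-05). This count was the least settled: it was 2 without control set 5 replicate 8, 3 without PBO replicate 1, 20 without control set 5 replicate 7, 1 when only the 6 arrays were fitted and 3 against all methylcellulose animals. In the PBO animals 2 of 13 hepatocyte markers rose and 6 fell (mean 12.99 to 13.17 against 13.25 to 13.26). Of the biliary and progenitor markers 2 rose and 2 fell, and 2 stellate and matrix, 1 endothelial and 1 erythroid marker fell. Their part was not tested.

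The NC compound Nif moved single members in both directions. Rpl13a, which also silences certain mRNAs when released from the ribosome, lay at 11.71, 11.73 and 12.03 against 11.26, 11.34 and 11.38 in control set 2 (0.49 ± 0.14, adjusted p = 0.0148), and Rps28 at 12.10, 12.15 and 12.25 against 11.81, 11.82 and 12.00 (0.29 ± 0.09, adjusted p = 0.0344). Rplp0 lay at 11.66, 11.78 and 11.88 against 12.17, 12.19 and 12.20 and fell by 0.42 (SE 0.09, adjusted p = 0.00102), and Rpl14 lay at 10.69, 10.72 and 10.84 against 10.94, 11.05 and 11.28 and fell by 0.34 (SE 0.10, adjusted p = 0.0268). The 2 rises (4.55%) and 2 falls (4.55%) stood beside 3.78% and 4.68% of all probe sets (8.46% called), a share near the background. The count was 1 without Nif replicate 2, 2 without replicate 10 or 12 of control set 2, 9 with array weights and 13 against all methylcellulose animals.

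PB was the one compound with all 44 members below 0 (median −0.20, with 0.01 over all probe sets). Only 2 fell (4.55%) and 0 rose, beside 0.384% and 0.964% of all probe sets (1.35% called), while 24 had an unadjusted p under 0.05. The share of all probe sets under that unadjusted level was not counted, so the 24 have no background beside them. Rpl13a lay at 10.68, 10.81 and 10.99 against 11.16, 11.17 and 11.83 in control set 6 and fell by 0.56 (SE 0.14, adjusted p = 0.0198). Rps3 lay at 11.20, 11.24 and 11.48 against 11.50, 11.51 and 12.08 and fell by 0.39 (SE 0.10, adjusted p = 0.0266). In both genes 1 vehicle animal, replicate 1 of control set 6, lay far above the other 2. Without it 0 members were called and the median was −0.10, without replicate 2 of that set 14 fell, without replicate 3 of that set 4, without PB replicate 1 or 2 the count was 0, and against all methylcellulose animals it was 6.

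With Wy, a PPARα agonist, 1 member rose (2.27%) and 0 fell, beside 6.50% and 6.45% of all probe sets: Rpl3 lay at 12.24, 12.47 and 12.51 against 12.04, 12.14 and 12.15 (0.30 ± 0.10, adjusted p = 0.0457). The call was lost without any 1 of the 3 control set 1 animals and without Wy replicate 2 or 3. AA, CFX, CPA and Mcarb had 0 members called by limma, and 4, 0, 3 and 2 members with an unadjusted p under 0.05. For these too, the share of all probe sets under that unadjusted level was not counted. Over all probe sets 4.66% were called with AA (2.74% up, 1.92% down), 0.00630% with CFX, 7.85% with CPA (3.11% up, 4.73% down) and 1.07% with Mcarb (0.782% up, 0.284% down). The member medians were 0.05, 0.01, −0.07 and 0.05.

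**Figure D4:**
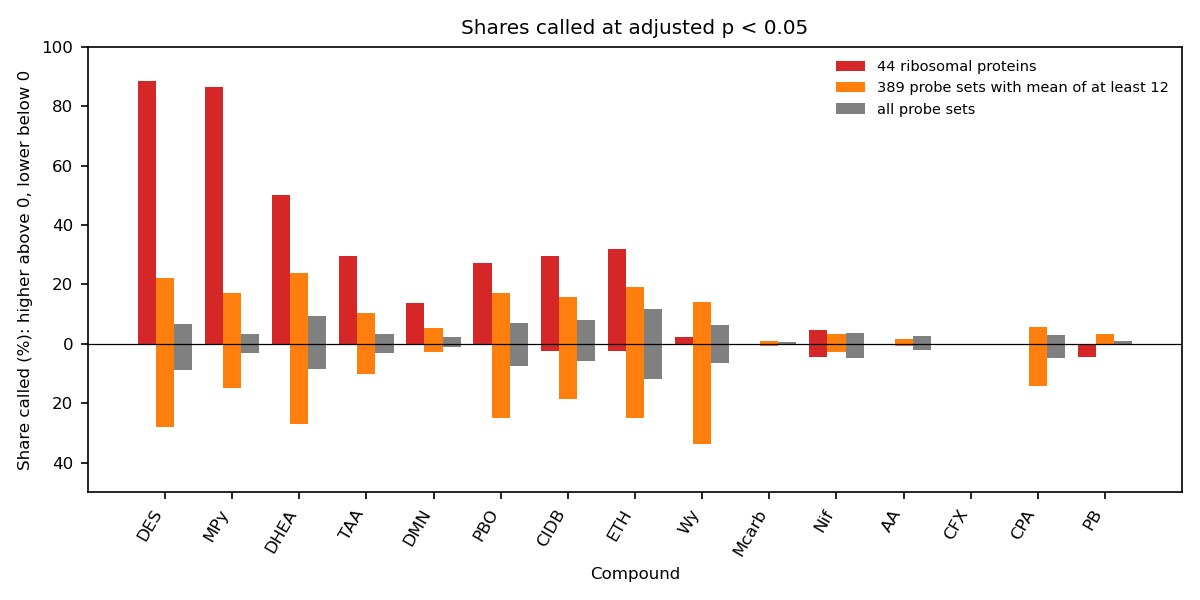
Share of features called at adjusted p under 0.05 with each compound, higher above the zero line and lower below it, for the 44 ribosomal proteins, the 389 probe sets with a mean of at least 12 and all 15866 probe sets. With DES and MPy 88.6% and 86.4% of the ribosomal proteins rose, while 22.1% and 17.2% of the bright probe sets did.

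The members were also read against the 389 probe sets with a mean of at least 12, which include many members. Of these, 22.1% rose with DES, 17.2% with MPy, 23.7% with DHEA, 19.3% with ETH and 10.3% with TAA. The median change of the bright probe sets was −0.07 with DES and −0.05 with MPy. The shares of members rising were 88.6%, 86.4%, 50%, 31.8% and 29.5%. Counting rises and falls together, the bright share exceeded the member share with ETH (44.2% against 34.1%) and PBO (41.9% against 27.3%). It was also higher with CIDB (34.4% against 31.8%), Wy (48.1% against 2.27%) and CPA (19.8% against 0%). The bright and member shares were 50.6% and 50% with DHEA, 50.1% and 88.6% with DES, 32.1% and 86.4% with MPy, and 20.3% and 29.5% with TAA.

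Rps6, followed here for its place downstream of mTORC1, rose with DES, MPy, DHEA, TAA, ETH and PBO. It lay at 13.11, 13.12 and 13.20 with DES against 12.44, 12.48 and 12.65 (0.62 ± 0.09, adjusted p = 2.75e-07) and at 13.15, 13.24 and 13.25 with MPy against 12.61, 12.62 and 12.74 (0.56 ± 0.09, adjusted p = 9.85e-06). With DHEA the change was 0.47 ± 0.09 (adjusted p = 5.87e-05), with TAA 0.35 ± 0.09 (adjusted p = 0.0071), with ETH 0.28 ± 0.09 (adjusted p = 0.0108) and with PBO 0.24 ± 0.09 (adjusted p = 0.0488). CIDB (0.22, adjusted p = 0.0727), AA (0.21, adjusted p = 0.142) and DMN (0.24, adjusted p = 0.117) missed the threshold although the treated and vehicle animals did not overlap. The remaining changes ran from −0.15 (PB) to 0.13 (Mcarb), and none passed.

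The paralogs were called in 3 instances, Rps27l with CIDB and ETH and Rpl7l1 with ETH. Outside CIDB and ETH the change of Rps27l ran from −0.22 (PB) to 0.36 (DMN), and outside ETH that of Rpl7l1 from −0.20 (Nif) to 0.32 (AA, adjusted p = 0.066). Rpl3l, at the low end of the array's range, changed by −0.14 (PB) to 0.11 (AA). Rps4y2 varied most between animals: with CIDB it lay at 6.36, 7.16 and 7.25 against 6.98, 7.66 and 7.87, and this change of −0.58 ± 0.27 did not pass (adjusted p = 0.152).

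Of 29 genes of mTORC1 and S6 kinase signalling, 5 rose and 1 fell with DES, 3 rose with MPy, 3 rose and 5 fell with ETH, and 4 rose and 2 fell with PBO. Among them Myc, which drives ribosomal genes, rose by 1.57 ± 0.36 with DES (adjusted p = 0.00134), by 1.29 ± 0.36 with MPy (adjusted p = 0.0196) and by 1.72 ± 0.36 with ETH (adjusted p = 0.000239). Rps6kb1, the S6 kinase gene itself, fell by 0.37 with DES, by 0.47 with PBO and by 0.64 with ETH (SE 0.11 each, adjusted p = 0.0194, 0.00293 and 2.35e-05). Rheb, from the same list, rose by 0.79 ± 0.08 with DES (adjusted p = 2.13e-10) and by 0.35 ± 0.08 with PBO (adjusted p = 0.00171). Ddit4, an inhibitor of mTORC1, rose by 2.12 ± 0.35 with MPy (adjusted p = 3.93e-05). Of the same 29 genes 3 rose with DHEA, 2 rose and 5 fell with Nif, and 1 rose and 2 fell with TAA. With CIDB and with CPA 2 rose and 1 fell, with AA 1 fell and with Wy 1 rose. None passed with CFX, DMN, Mcarb or PB. The part of this list in the changes of the members was not tested.

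Other parts of the translation machinery followed the ribosomal proteins only in part. Rack1, a scaffold on the small subunit that the naming rule does not cover, rose with DES (0.56 ± 0.08), MPy (0.82 ± 0.08), DHEA, TAA, CIDB and DMN (0.32 to 0.35), with adjusted p from 3.82e-10 to 0.00651. Of 13 elongation factors and other mRNAs with a TOP tract, Rack1 among them, 8 rose with DES, 9 with MPy, 10 with DHEA, 6 with TAA and 6 with ETH, and none fell with these compounds. Eef2, which moves the ribosome along the mRNA, rose by 0.56 ± 0.09 with MPy and by 0.56 ± 0.09 with DHEA (adjusted p = 2e-05 and 5.69e-06), and Eef1g, a subunit of the factor that reloads Eef1a1, rose by 0.50 ± 0.09 with DES and 0.57 ± 0.09 with MPy (adjusted p = 6.25e-05 and 2.64e-05). Of 27 initiation factors, 9 rose and 1 fell with DES, 7 rose with MPy, 11 with DHEA and 12 with ETH.

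The factors that build ribosomes and the mitochondrial ribosomal proteins ranked the compounds differently. Of 63 ribosome biogenesis factors, 45 rose and 0 fell with ETH (median 0.43), 17 rose and 1 fell with DES (0.17), 13 rose with CIDB (0.15), 11 with TAA (0.15), 9 rose and 1 fell with DHEA (0.15), and 6 rose with MPy (0.15). With PBO 6 of these factors rose and 1 fell (0.03). Nucleolin (Ncl) rose by 1.26 ± 0.15 with ETH (adjusted p = 6.71e-09) and by 0.56 ± 0.15 with MPy (adjusted p = 0.0144). It also rose by 0.60 ± 0.15 with TAA and by 0.58 ± 0.15 with DHEA (adjusted p = 0.00953 and 0.00447). Of 71 mitochondrial ribosomal proteins, which translate the mitochondrial genome, 53 rose and 1 fell with ETH (median 0.50), 26 rose with DHEA (0.21), 23 with Wy (0.17), and with DES and MPy 5 rose with 2 and 1 falling (0.01 and 0.06). With PBO 13 of the mitochondrial ones rose (0.14), with Nif 11 (0.16) and with TAA 9 (0.099), with 1 falling in each. Mrps18b rose by 1.65 ± 0.09 with ETH (adjusted p = 1.08e-19) and by 0.82 ± 0.09 with DHEA (adjusted p = 1.18e-09). So the cytosolic set moved most with DES and MPy, and both other lists with ETH, where the cytosolic median was 0.17 (0.049 without control set 5 replicate 8). These differences between lists were not tested.

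**Figure D5:**
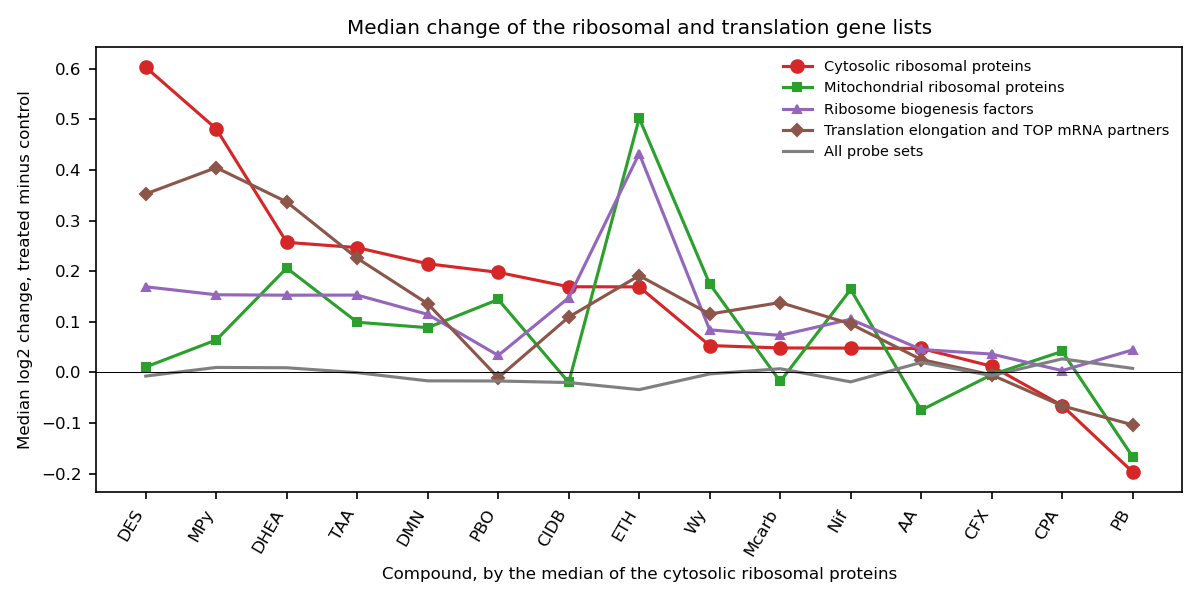
Median log2 change, treated minus control, of the cytosolic ribosomal proteins (red), mitochondrial ribosomal proteins (green), ribosome biogenesis factors (purple), elongation and other TOP mRNAs (brown) and all probe sets (grey) with each compound, ordered by the red points. The red median is highest with DES (0.60) and MPy (0.48), and the green and purple medians are highest with ETH (0.50 and 0.43).

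Vehicle animals were compared with each other to see what a difference between control sets alone can give. Of the 7 pairs of control sets with the same vehicle, 4 had 0 members called (with 0.466%, 0.914%, 7.77% and 1.95% of all probe sets called between sets 3 and 4, 1 and 2, 1 and 6, and 2 and 6). Between sets 5 and 6, 7 members were called (15.9%), all lower in set 5, beside 10.2% of all probe sets. Among them were Rps24 (−0.52 ± 0.13, adjusted p = 0.00638), Rpl24 (−0.47 ± 0.11, adjusted p = 0.00329) and Rpl11 (−0.45 ± 0.10, adjusted p = 0.00214). Rpl11 was also lower in set 5 than in set 1, and Rpl24 lower in set 5 than in set 2, the 1 member called in each of these pairs (beside 2.14% and 2.72%). For sets 5 and 6 the count was 0 without control set 6 replicate 1, 1 without control set 5 replicate 8, and 12 without control set 6 replicate 2 or control set 5 replicate 7. Set 5 is the control of DES, ETH and PBO.

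The class contrasts took each compound's mean change as 1 value. No member was called by limma for C (NGC and GC together) against NC, for NGC against GC or for NGC against NC, beside 0.0126%, 0.0819% and 0.0189% of all probe sets, and 0, 3 and 1 members had an unadjusted p under 0.05. How many of all probe sets fell under that unadjusted level was not counted. Rpl19 had the lowest unadjusted p. It was 0.59 ± 0.18 lower in the 8 NGC than in the 2 GC compounds (adjusted p = 0.25). Both GC compounds share corn oil control set 3, while all 8 NGC compounds had methylcellulose controls. Class and vehicle cannot be told apart in this contrast. The median member difference was 0.18 for C against NC and 0.17 for NGC against NC, and both NC compounds share control set 2. Within NGC the member medians ran from −0.20 (PB) to 0.60 (DES).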

How the data were processed

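Liver mRNA of 63 rats was measured on Affymetrix RAE230A arrays. The authors applied RMA from the affy package (background correction, normalization between arrays, probe set summary) and deposited log2 values for 15866 probe sets; the version is not given in the sources used here. Values ran from 3.96 to 15.1, array medians from 7.42 to 7.51, and no array was a copy of another. The labels name methylcellulose for all vehicles other than corn oil, while the study names methylcellulose for some compounds and carboxymethyl cellulose for others.

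Symbols came from the supplied platform annotation (12783 probe sets with 1 symbol, 312 with several, 2771 with none). In R 4.3.3, limma 3.58.1 estimated a mean for each of the 21 groups from the 63 arrays together (42 residual degrees of freedom). The code was tested on simulated data. Each compound was compared with its control set, with Benjamini-Hochberg adjustment over all probe sets and calls at adjusted p under 0.05. Errors are the SE of the fit. For a single value, the exact two-sided permutation test of 3 against 3 animals cannot go below 0.1 and was not used. Class contrasts used 1 value per compound. With 3 arrays per group, their number limits the precision.

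Members and gene lists were chosen with earlier results of these data known. Per compound, up to 4 highest and 4 lowest called members without overlap between groups were named, with Rps6, the paralogs and the members called most often. Other genes were named after their values were seen, and so were the comparisons between treated groups. The alternatives are given in the closing section. Promoters are RefSeq entries of build GRCr8, read with Python 3.11.15 and pandas 2.3.3; 7 members had none in the table.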

Additional observations from a re-analysis of the deposited data

How the results depend on the processing

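The counts of members called with DES (37 to 40) and MPy (32 to 39) stayed within 1.5 times the reported value under every alternative run. Counts that moved by more are given by alternative. With only the arrays of the compared groups fitted they were DMN 2, ETH 6, Nif 2, PB 0, PBO 1 and Wy 0, and for the control set pairs 1 and 5, 2 and 5, and 5 and 6 they were 0. With controls pooled by vehicle they were AA 3, CPA 2, DHEA 36, Mcarb 1, Nif 13, PB 6, PBO 3, TAA 34 and Wy 8, and the medians were 0.092 for AA, 0.49 for DES, 0.32 for DHEA, 0.15 for DMN, 0.051 for ETH, 0.55 for MPy, 0.084 for PBO and 0.29 for TAA. With array weights they were AA 2, CIDB 30, CPA 4, DMN 31, Nif 9, PB 0, TAA 23, Wy 4, MPy against TAA 15 and CIDB against DMN 11, for the control set pairs 3 and 4 it was 17, 1 and 2 it was 2, 1 and 5 it was 4, 1 and 6 it was 2, 2 and 5 it was 4, 5 and 6 it was 3, and the medians were 0.25 for CIDB and 0.26 for DMN. With arrays centred on their median they were DMN 3 and Wy 0, with 0 for sets 2 and 5 and a median of 0.0067 for AA. After a second quantile normalization they were AA 1, Wy 3 and MPy against TAA 15, with 1 for sets 1 and 6, 4 for sets 2 and 5 and 11 for sets 5 and 6, and medians of 0.21 for DHEA and 0.18 for DMN. Without dim probe sets the count for sets 2 and 5 was 2. With the mean of all probe sets of a gene it was 0 for sets 2 and 5, 1 for sets 1 and 6 and 2 for sets 1 and 5, and the TAA median was 0.23. Without probe sets with a suffix PB had 1, and Rps24, left with its dim probe set, changed by −0.042 with MPy (adjusted p = 0.869) in place of 0.71. The class contrasts had 0 members called under each alternative run. The cause of these shifts was not tested.

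With 1 array left out, the count ran from 38 to 39 for DES, 32 to 37 for MPy, 16 to 20 for DHEA, 12 to 18 for CIDB, 10 to 20 for ETH, 7 to 14 for TAA, 2 to 20 for PBO, 2 to 13 for DMN, 0 to 14 for PB, 1 to 3 for Nif, 0 to 2 for Wy (2 without Wy replicate 1), 0 to 1 for AA (1 without AA replicate 2) and CPA (1 without CPA replicate 3 or control set 4 replicate 2), 26 to 37 for DES against PBO, 26 to 32 for DES against Wy, 4 to 7 for MPy against TAA and 3 to 5 for CIDB against DMN (3 without DMN replicate 1), and it was 0 for CFX and Mcarb. For the control sets it ran from 0 to 12 for sets 5 and 6, 0 to 9 for sets 1 and 5 (9 without set 5 replicate 7, 0 without set 1 replicate 4 or set 5 replicate 8 or 9), 0 to 6 for sets 2 and 5 (6 without set 5 replicate 7) and 0 to 2 for sets 1 and 6 (2 without set 6 replicate 2). The medians ran from 0.14 to 0.25 for CIDB, 0.19 to 0.28 for DMN, 0.049 to 0.25 for ETH (0.049 without control set 5 replicate 8), −0.27 to −0.10 for PB, 0.52 to 0.67 for DES, 0.10 to 0.29 for PBO and 0.23 to 0.26 for TAA.

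CPA and PB share replicate numbers 1 to 3 with their control sets. Animals with the same number did not deviate together (correlations of −0.15, 0.17 and 0.07 for CPA and −0.15, −0.05 and −0.05 for PB), so the numbers were not taken as pairs. With a replicate block on the 6 arrays the count was 0 for CPA and 0 for PB, where Rpl13a and Rps3 had adjusted p = 0.644 and 0.73.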
